A study of Mus musculus with 18 samples.

Results

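RNA of colon tissue was compared between 6 mouse libraries labelled IBC and 6 labelled vector. These were all that carry these labels, 12 of the 18 libraries of the series. IBC is isobavachalcone, a prenylated chalcone from plants, which the study's title links to the receptor GPR84, to PI3K-AKT signalling and to colitis induced by TNBS (trinitrobenzenesulfonic acid, a hapten that inflames the rodent colon). The 6 libraries labelled TNBS enter for values side by side and for the shared estimate of spread. All libraries were polyadenylated RNA from colon tissue. The labels used here give no dose, route, time, strain, age or sex. They do not say whether IBC mice also received TNBS, nor that each library came from a separate animal, so a p-value here reflects only how far these libraries spread, which may be technical.

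The colon wall holds an absorptive and mucus-secreting epithelium over a stroma of fibroblasts and vessels, with layers of smooth muscle outside. In injury, resident cells release chemokines that bring neutrophils and monocytes from the blood, fibroblasts lay down matrix, and crypt cells divide to replace lost epithelium. GPR84 is a receptor for medium-chain fatty acids carried mainly by myeloid cells, and PI3K and AKT are kinases that act downstream of many receptors.

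Libraries held 55669263 to 78874868 counts. Vector library 3 stood apart by its share of mitochondrially encoded counts, 17.98% against 5.55% to 7.09% in the other 5 vector libraries and 4.48% to 7.51% in IBC. Vector library 6 stood apart by pancreatic acinar genes: Ctrb1, a chymotrypsinogen, was at 6914 CPM (counts scaled to a library total of 1e+06) there and at no more than 0.657 CPM in the other 11 libraries compared, and 3 of 10 listed acinar genes were high enough to test. Hoxb13, a gene of the most distal hindgut, was above 10 CPM in 4 libraries of each group and below it in 2, which were vector 3 and 4 and IBC 2 and 5. Markers of colon tissue were present in all 12 libraries, with Muc2, a goblet cell mucin, at no less than 2041 CPM and Myh11, a smooth muscle myosin, at no less than 316 CPM. The Hoxb13 classes, called high-Hoxb13 and low-Hoxb13, were defined from the data and are not groups of the study.

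Of 35405 genes measured, 20855 had enough counts to test, and none passed an adjusted p of 0.05 (0% called; edgeR's quasi-likelihood test, Benjamini-Hochberg, smallest adjusted p 0.126). At an unadjusted p under 0.05 stood 1775 genes (8.51%), 1021 higher in IBC (4.9%) and 754 lower (3.62%). The higher ones had a median difference of 0.84 on the log2 scale, with 409 (40.1%) beyond 1 log2 unit, and the lower ones a median size of 0.71, with 213 (28.2%) beyond 1. In 93 genes (0.446%) all IBC libraries lay above all vector libraries, and in 132 (0.633%) all lay below.

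These counts differed between settings. DESeq2 called 186 genes (0.894% of 20817), 133 higher (0.639%) and 53 lower (0.255%), and limma with library weights called 616 (2.95%). Limma on log2(FPKM + 0.1) and on log2(FPKM + 1), without weights, called 0, with 1983 and 2023 genes at an unadjusted p under 0.05. Leaving out IBC library 2 gave 6 calls. The 225 genes without overlap became 493 without vector library 3, 496 without IBC library 2 and 368 without IBC library 1. On the FPKM scale 233 genes did not overlap upward and 38 downward, and of the 1983 genes with a pseudocount of 0.1, 1571 were higher and 412 lower. Because edgeR called no gene, differences are given below as levels, with mean ± SD over 6 libraries, log2 fold changes ± SE and unadjusted p-values from edgeR. In bulk tissue, more cells of a type and more RNA per cell cannot be told apart.

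Among the genes with the smallest p of those higher in IBC were Clec10a, Cxcl2, Hk3, H19, Ccr2, Sulf2, Chil3, Atg9b, Nt5dc2, Clec4d and Cxcl3. DESeq2 called all 11 of these, and 3 of the 11 had no overlap between groups, beside 0.446% of all genes. The rule that chose them favours such separation, so nothing is read from that count. Clec10a, a galactose-binding lectin of macrophages and dendritic cells, was at 6.85, 1.29, 6.4, 6.7, 18.1 and 11.2 CPM in IBC libraries 1 to 6 and at 1.39, 1.63, 0.963, 0.646, 0.795 and 1.21 CPM in vector libraries 1 to 6. Only IBC 2 lay inside the vector range. The log2 fold change was 2.93 ± 0.53 (unadjusted p = 2.52e-05, adjusted p = 0.126, edgeR).

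Ccr2, the receptor through which monocytes answer CCL2, was at 30.7, 3.83, 23, 22.3, 5.36 and 35.3 CPM in IBC and 2.1 to 4.9 CPM in vector. IBC 2 lay inside the vector range and IBC 5 just above it, while the 4 high-Hoxb13 libraries were far above. Hk3, a hexokinase of myeloid cells, was at 4.27 ± 1.75 CPM in IBC and 1.18 ± 0.437 CPM in vector. Clec4d, a lectin receptor of neutrophils and monocytes, was at 3.48 ± 2.58 CPM in IBC and 0.225 ± 0.104 CPM in vector, with IBC 2 at 0.162 CPM.

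H19, an imprinted noncoding RNA of fetal tissues, was at 7.59, 0.34, 4.29, 5.62, 0.619 and 5 CPM in IBC and 0.143 to 0.548 CPM in vector. Its 4 high-Hoxb13 IBC libraries stood well above the vector range, IBC 5 just above it and IBC 2 inside it. Sulf2, which removes sulfate from heparan sulfate, was at 56 ± 13.9 CPM in IBC and 24.9 ± 7.17 CPM in vector. Nt5dc2, of the nucleotidase family, separated the groups, at 8.86 to 16.5 against 4.57 to 6.52 CPM. So did Atg9b, an autophagy protein, at 1.41 to 4.73 against 0.407 to 0.892 CPM.

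Inflammatory cytokines and chemokines held more genes without overlap than the other lists. Of 21 tested, 17 were higher at an unadjusted p under 0.05, beside 4.9% of all genes, and none was lower. The median log2 fold change was 2.20, beside -0.01 over all genes. Groups did not overlap in 7, beside 0.446% of all genes (1.08% in either direction): Ccl3, Cxcl1, Ccl2, Ccl4, Cxcl10, Ccl12 and Lif, the last 4 named after their values were seen. DESeq2 called 12 of the list, all higher, beside 0.639% of all genes.

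Upstream sequences of 4 members are shown because they hold letters of the kind that the transcription factor NF-κB binds, GGG-NN-TTTCC, searched on both strands. RefSeq's promoter table (build GRCm38.p6) held 15 of the 21 genes. Of these 15, 4 (26.7%) had a match in the 250 bases before the start site, beside 464 of all 32851 promoters (1.41%). A listed gene counts once if any of its promoters matches, whereas the background counts each promoter. The 2 shares therefore differ in unit. A match is a description of letters, and binding was not measured. Capitals mark the matches, and each sequence runs 5′ to 3′ on the gene's strand. Cxcl1 is at chr5:90890995-90891244 (plus strand), Cxcl2 at chr5:90903649-90903898 (plus strand), Cxcl3 at chr5:90785851-90786100 (plus strand) and Il6 at chr5:30012864-30013113 (plus strand). Cxcl1 and Cxcl2 held 2 matches each, and Cxcl3 and Il6 held 1 each.
Cxcl1: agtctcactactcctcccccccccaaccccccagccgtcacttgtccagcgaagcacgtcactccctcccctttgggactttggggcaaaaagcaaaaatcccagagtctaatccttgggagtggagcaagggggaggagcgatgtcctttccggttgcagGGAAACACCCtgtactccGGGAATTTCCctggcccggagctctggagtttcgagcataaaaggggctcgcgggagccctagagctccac
Cxcl2: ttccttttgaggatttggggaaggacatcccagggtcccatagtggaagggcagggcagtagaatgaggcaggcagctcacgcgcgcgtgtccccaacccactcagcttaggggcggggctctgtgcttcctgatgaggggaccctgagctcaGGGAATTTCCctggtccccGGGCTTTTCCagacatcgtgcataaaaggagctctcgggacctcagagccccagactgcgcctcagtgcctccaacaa
Cxcl3: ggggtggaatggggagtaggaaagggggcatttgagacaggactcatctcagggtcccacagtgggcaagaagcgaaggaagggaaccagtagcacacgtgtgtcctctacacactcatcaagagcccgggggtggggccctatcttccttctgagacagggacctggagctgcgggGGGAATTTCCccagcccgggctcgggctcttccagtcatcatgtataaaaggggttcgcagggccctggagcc
Il6: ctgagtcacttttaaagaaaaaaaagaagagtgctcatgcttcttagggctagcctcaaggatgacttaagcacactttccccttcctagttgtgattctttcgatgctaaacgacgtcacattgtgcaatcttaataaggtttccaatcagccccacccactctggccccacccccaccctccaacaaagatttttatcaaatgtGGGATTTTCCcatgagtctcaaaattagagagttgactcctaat

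Cxcl1, Cxcl2, Cxcl3 and Cxcl5 encode ligands of the neutrophil receptor CXCR2. Cxcl1 was at 7.02, 1.04, 1.35, 0.575, 1.18 and 2.28 CPM in IBC and 0.25, 0.33, 0.316, 0.342, 0.552 and 0.232 CPM in vector, without overlap. Cxcl2 had no count in 5 vector libraries and 0.079 CPM in vector 3. In IBC it was at 7.19, 0.34, 2.24, 0.0431, 0.971 and 4.67 CPM, so IBC 4 lay below vector 3. Cxcl3 was at 0 in 5 vector libraries, with 0.0714 CPM in vector 6, and at 6.8, 0, 0.941, 0.23, 0.281 and 2.44 CPM in IBC. Cxcl5 ran from 0.0647 to 25.7 CPM in IBC, with no vector library above 0.177 CPM. IBC 1 was the highest library for all 4 ligands, and IBC 2 or IBC 4 the lowest.

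Among chemokines for monocytes, Ccl2 was at 6.44, 1.75, 3.04, 2.87, 5.56 and 2.72 CPM in IBC and 1.44, 1.12, 0.442, 0.772, 1.02 and 1.37 CPM in vector, without overlap. A two-sided exact permutation test over the 12 libraries gave p = 0.00216 for Ccl2, Cxcl1 and Chil3, the smallest it can give. Adjusted over a family of 22 genes, chosen with earlier results of these data known, it was 0.0158 for each. Ccl12, of the same family, was at 3.31 ± 1.5 CPM in IBC and 0.864 ± 0.627 CPM in vector. Cxcl10, a chemokine induced by interferon, was at 4.84 ± 2.15 CPM in IBC and 1.02 ± 0.474 CPM in vector. Ccl3 and Ccl4, chemokines made by activated macrophages, were at 0.178 to 1.17 and 0.228 to 0.682 CPM in IBC and at no more than 0.0649 and 0.142 CPM in vector.

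Il1b, the cytokine released through inflammasomes, was at 32.4, 3.95, 13, 3.33, 3.95 and 24.2 CPM in IBC and 1.69, 4.68, 0.868, 1.47, 2.63 and 1.71 CPM in vector. IBC 2, 4 and 5 lay inside the vector range. Tnf was at 2.25 ± 1.04 CPM in IBC and 0.811 ± 0.547 CPM in vector (unadjusted p = 0.0102). Il6 was at 1.44, 0, 0.385, 0.287, 0.141 and 0.236 CPM in IBC and had no count in 4 vector libraries, so its level rests on few fragments. Lif, of the Il6 family, was at 5.04 ± 0.816 CPM in IBC and 3.29 ± 0.744 CPM in vector. Of 19 NF-κB and Toll-like receptor genes none was higher at an unadjusted p under 0.05. Traf1, an adaptor of TNF receptors, was lower in that list, at 12.4 ± 8.13 CPM in IBC and 22.6 ± 5.84 CPM in vector, with IBC 2 at 28.8 CPM. Of 14 inflammasome and gasdermin genes, the sensors Nlrp3 and Nlrp1b were higher at that p, beside 4.9% of all genes.

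**Figure D1:**
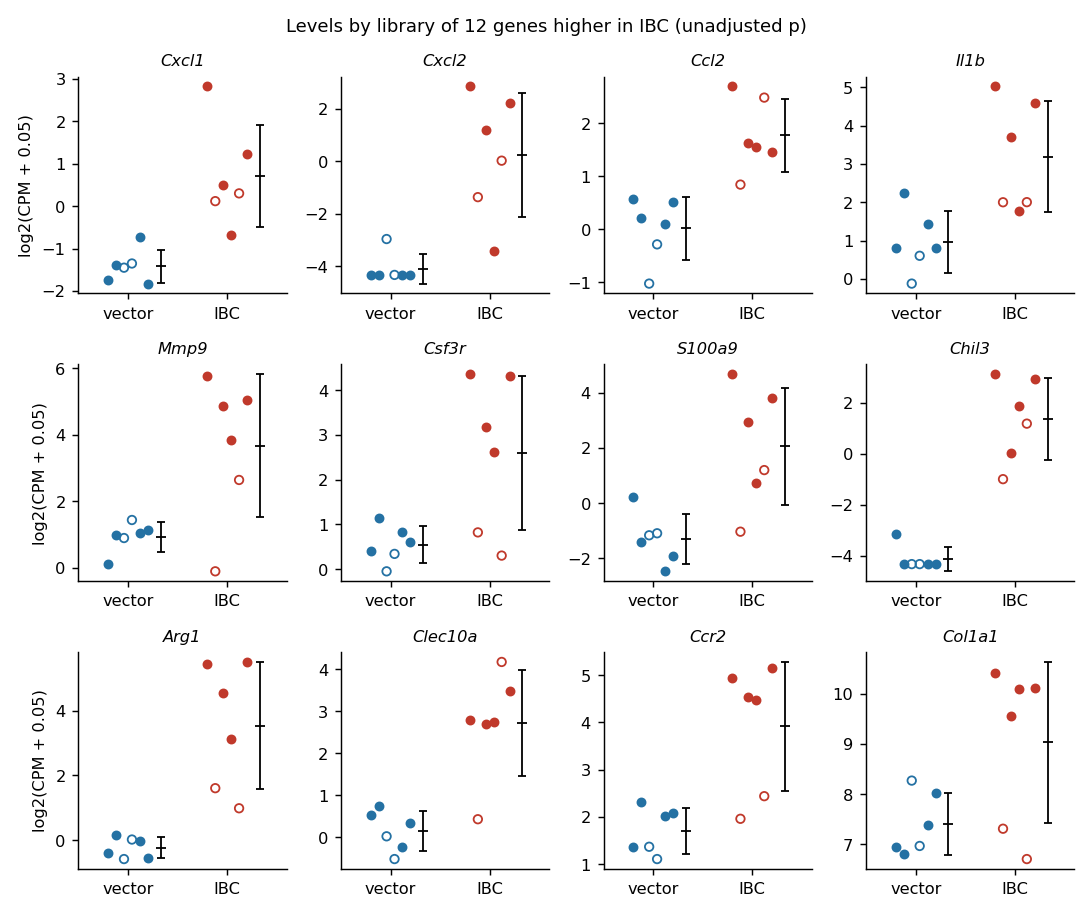
Level of 12 genes in each library, as log2(CPM + 0.05), for vector (blue) and IBC (red). Filled points are high-Hoxb13 libraries and open points low-Hoxb13 ones, with black bars for mean and SD over 6 libraries. Cxcl1, Ccl2, Chil3 and Arg1 do not overlap between groups, and for Col1a1 the 2 open IBC points lie inside or below the vector range while the 4 filled ones lie above it.

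Neutrophil genes had a median log2 fold change of 2.73. Of 15 tested, 12 were higher at an unadjusted p under 0.05, beside 4.9% of all genes, and none was lower. DESeq2 called 7, all higher, beside 0.639% of all genes. Csf3r, the receptor for granulocyte colony-stimulating factor, was at 20.4, 1.71, 9, 6.12, 1.18 and 19.8 CPM in IBC and 0.916 to 2.15 CPM in vector. Both low-Hoxb13 IBC libraries lay inside the vector range and the other 4 above it. Mmp9, a gelatinase of neutrophil granules, was at 54.1, 0.874, 28.9, 14.2, 6.16 and 33 CPM in IBC and 1.02 to 2.65 CPM in vector, with IBC 2 alone not above the vector range.

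S100a8 and S100a9 encode the subunits of calprotectin. S100a8 was at 9.2, 0.129, 1.64, 0.791, 1.86 and 3.95 CPM in IBC and 0 to 0.409 CPM in vector. S100a9 was at 25.4, 0.437, 7.57, 1.61, 2.24 and 14.1 CPM in IBC and 0.13 to 1.13 CPM in vector. IBC 1 was highest and IBC 2 lowest for both. Retnlg, a resistin-like gene of neutrophils, was at 6.43 ± 3.59 CPM in IBC and 0.573 ± 0.616 CPM in vector. Mmp8, the neutrophil collagenase, was at 0.129 to 3.02 CPM in IBC and at 0 in 4 vector libraries.

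Monocyte and macrophage markers were higher by less, with a median log2 fold change of 0.84. Of 19 tested, 13 were higher at an unadjusted p under 0.05, beside 4.9% of all genes, and none was lower, and without vector libraries 3 and 6 the count was 8. Msr1, a scavenger receptor, was at 15 ± 5.83 CPM in IBC and 5.09 ± 2.09 CPM in vector. Itgam, the integrin CD11b, was at 19.8 ± 10.4 CPM in IBC and 7.72 ± 2.76 CPM in vector, and Mrc1, the mannose receptor, at 62.6 ± 32.3 CPM in IBC and 25.6 ± 9.3 CPM in vector. Cd68, named after its value was seen, was at 20.8 ± 8.54 CPM in IBC and 9.51 ± 2.15 CPM in vector.

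Of 9 genes of alternatively activated macrophages, 7 were higher at an unadjusted p under 0.05, beside 4.9% of all genes, and none was lower. The other 2, Retnla and Retnlb, were below 0, with log2 fold changes of -0.54 ± 0.89 and -1.38 ± 1.01 (unadjusted p = 0.551 and 0.187, edgeR). Chil3, a chitinase-like protein, was at 8.66, 0.453, 0.984, 3.59, 2.22 and 7.53 CPM in IBC, at 0 in 5 vector libraries and at 0.0626 CPM in vector 1. Arg1, an arginase, was at 44, 2.99, 23.5, 8.74, 1.93 and 45.5 CPM in IBC and 0.616 to 1.07 CPM in vector. Neither overlapped between groups, and both low-Hoxb13 IBC libraries were under 3 CPM for each. Ccl24, a chemokine for eosinophils made by such macrophages, was at 5.46 ± 2.94 CPM in IBC and 1.02 ± 0.418 CPM in vector.

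Mast cell markers had a median log2 fold change of 2.12, and 5 of 8 were higher at an unadjusted p under 0.05 (Mcpt1, Mcpt2, Cpa3, Fcer1a and Mcpt4), beside 4.9% of all genes. The count was 3 without IBC library 3 and 3 without IBC library 6. Mcpt1 and Mcpt2, proteases of mucosal mast cells, were at 3.7 ± 2.82 CPM in IBC and 0.452 ± 0.285 CPM in vector, and at 1.92 ± 1.68 CPM in IBC and 0.141 ± 0.142 CPM in vector. Counts may be split between such similar proteases. Cpa3, a carboxypeptidase of mast cell granules, was at 1.21 ± 1.11 CPM in IBC and 0.266 ± 0.128 CPM in vector.

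Of 10 eosinophil and type 2 genes, 5 were higher at an unadjusted p under 0.05 (Ccr3, Ccl24, Il1rl1, Il33 and Alox15), beside 4.9% of all genes, and none was lower. Ccr3, the eotaxin receptor, was at 1.52 ± 0.926 CPM in IBC and 0.282 ± 0.213 CPM in vector. Il33, an alarmin, was at 13.1 ± 6.05 CPM in IBC and 6.23 ± 2.64 CPM in vector, and its receptor Il1rl1 at 31.4 ± 22.4 CPM in IBC and 8.18 ± 7.6 CPM in vector. Alox15, a lipoxygenase, was at 5.33, 1.21, 4.58, 5.17, 2.27 and 7.72 CPM in IBC and 1.85, 2.06, 0.126, 0.544, 2.14 and 2.71 CPM in vector, where IBC 2 and IBC 5 overlapped the vector libraries.

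Of 14 complement genes all were above 0, beside 49.1% of all genes. Of these, 8 were higher at an unadjusted p under 0.05, beside 4.9% of all genes. C3, the central component, was at 214 ± 98.8 CPM in IBC and 87 ± 23.4 CPM in vector. C4b was at 75.5 ± 32.9 CPM in IBC and 38.6 ± 9.69 CPM in vector. C5ar1 and C3ar1, receptors for the anaphylatoxins, were at 8.01 ± 3.38 CPM in IBC and 3.13 ± 0.611 CPM in vector, and at 10.6 ± 5.13 CPM in IBC and 4.56 ± 1.07 CPM in vector. IBC 2 was the 1 IBC library not above the vector range for both receptors.

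Of 18 T and cytotoxic lymphocyte markers, 2 were higher and 1 lower at an unadjusted p under 0.05, beside 4.9% and 3.62% of all genes, so the list lay near the background. Without vector library 2 there were 7 higher and none lower, and 1 was higher without vector library 1, 5 or 6 or IBC library 2 or 5. Gzmb, a granule protease of killer cells, was at 3.43 ± 1.12 CPM in IBC and 0.565 ± 0.84 CPM in vector, without overlap. Gzma, another, was at 1.74 ± 1.46 CPM in IBC and 0.599 ± 0.613 CPM in vector. Il7r, the receptor for IL-7, was lower, at 2.07 ± 0.709 CPM in IBC and 4.01 ± 2.59 CPM in vector, with vector 2 at 9.28 CPM.

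**Figure D2:**
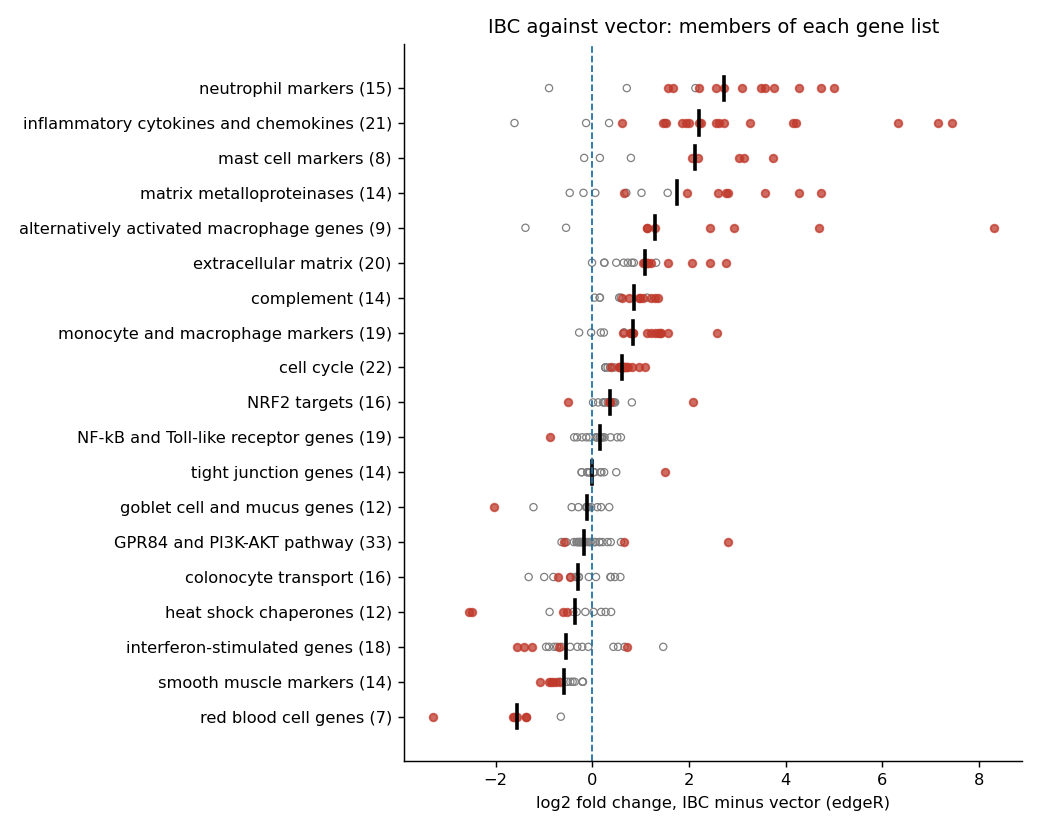
Log2 fold change, IBC minus vector, of each tested gene (points) in 19 lists, with the number tested in brackets. Filled points have an unadjusted p under 0.05, open points do not, black bars are list medians, and the dashed line is the median of all genes tested, -0.01. List medians run from 2.73 for neutrophil markers to -1.56 for red blood cell genes.

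Extracellular matrix genes were higher with a split by Hoxb13 class. Of 20 tested, 10 were higher at an unadjusted p under 0.05, beside 4.9% of all genes, and none was lower, and the median log2 fold change was 1.09. Col1a1, a chain of type I collagen, was at 1363, 158, 749.6, 1103, 104 and 1109 CPM in IBC and 124, 111, 308, 125, 167 and 258 CPM in vector. IBC 2 lay inside the vector range, IBC 5 below it and the other 4 far above it. Col1a2, its partner chain, was at 218 and 146 CPM in those 2 libraries and at 877 to 1329 CPM in the other 4, against 189 to 408 CPM in vector. Lox, which cross-links collagen, was at 40.5 ± 32.8 CPM in IBC and 7.52 ± 2.74 CPM in vector, and its relative Loxl2, named after its values were seen, at 82.4 ± 42.8 CPM in IBC and 40.1 ± 11 CPM in vector. In the low-Hoxb13 libraries alone Col1a1, Col1a2, Lox and Loxl2 were below 0, at -0.73, -0.76, -0.96 and -0.82 on the log2 scale. For Col1a1 the low vector libraries differed, with vector 3 at 308 CPM and vector 4 at 125 CPM, beside 158 and 104 CPM in IBC 2 and IBC 5. How far these signs rest on vector 3 was not tested. Timp1, an inhibitor of metalloproteinases, was at 16.9 ± 17.9 CPM in IBC and 2.47 ± 0.651 CPM in vector, with IBC 4 at 51.3 CPM.

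The IBC effect was fitted within each class, 4 against 4 high-Hoxb13 libraries and 2 against 2 low-Hoxb13 ones. The low class includes vector library 3, which stood apart by its mitochondrial share. Its vector library 4 stood apart by Hoxb6, another Hox gene, at 15.7 CPM. Hoxb6 was at 98.3, 79.2 and 93.8 CPM in vector 3, IBC 2 and IBC 5. Whether the low-class libraries of the 2 groups are alike in position along the colon was not tested. All 20 matrix genes were above 0 in the high class, beside 9539 of all 20855 genes, with a median log2 fold change of 1.62. In the low class 1 of 20 was above 0, beside 9970 of all 20855 genes, with a median of -0.84. The test of the difference between classes (edgeR's interaction term) gave an unadjusted p under 0.05 for 16 of the 20, all larger in the high class, beside 7.26% of all genes. None of the 20 passed after adjustment (smallest adjusted p 0.0973, edgeR). Over all genes the interaction was called for 1 (0.0048%), and 2501 (12%) stood at an unadjusted p under 0.05. The number called was 6 without vector library 3, 136 without vector library 4, 10 without IBC library 2, 3 without IBC library 5 and 330 with the 12 libraries alone.

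Several other lists had a higher median in the high class. Matrix metalloproteinases had medians of 2.88 in the high and 0.18 in the low class, endothelial and adhesion genes 0.60 and -0.73, and fibroblast markers 0.45 and -0.21. In these lists 6 of 14, 6 of 13 and 5 of 14 genes had an interaction at an unadjusted p under 0.05. All of them were larger in the high class, beside 7.26% of all genes. The lean was not limited to stromal lists. Neutrophil markers had medians of 3.42 and 0.91, and complement genes 1.07 and 0.25. Of these, 4 of 15 and 4 of 14 genes were at that p, all larger in the high class, beside 7.26% of all genes. None of the genes of these 5 lists passed after adjustment (smallest adjusted p 0.106, edgeR). Cytokines and chemokines had medians of 2.31 and 2.12. In the low class 21 of 21 genes were above 0, beside 9970 of all 20855 genes. At that p, 2 were larger in the high and 2 in the low class, beside 7.26% and 4.73% of all genes.

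**Figure D3:**
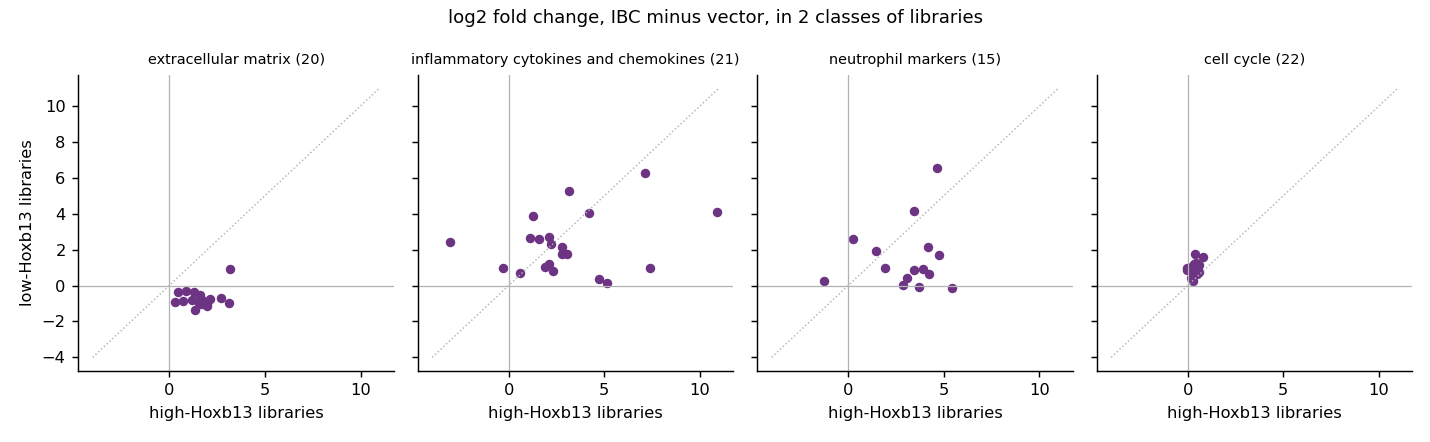
Log2 fold change, IBC minus vector, of each gene of 4 lists in high-Hoxb13 libraries (horizontal axis, 4 against 4) and in low-Hoxb13 libraries (vertical axis, 2 against 2). The dotted line marks equal values. Of the 20 matrix genes 1 lies above 0 in the low class, whereas all 22 cell cycle genes do, beside 9970 of all 20855 genes.

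The list of matrix metalloproteinases, which cut the matrix, also holds the inhibitor Timp1 and the protease Adamts4. Of its 14 genes, 8 were higher at an unadjusted p under 0.05, beside 4.9% of all genes, and none was lower. DESeq2 called 7, all higher and Timp1 and Adamts4 among them, beside 0.639% of all genes. Of these, Mmp8 and Mmp9 are also in the neutrophil list and Timp1 is also in the matrix list. Mmp10, a stromelysin, was at 63.3, 0.696, 38, 8.7, 1.13 and 52.8 CPM in IBC and 0.442 to 1.88 CPM in vector, with IBC 2 and IBC 5 inside the vector range. Mmp13, a collagenase, was at 25.5, 3.49, 15.2, 2.33, 4.76 and 24.2 CPM in IBC and 0.584 to 2.44 CPM in vector, with IBC 4 alone inside the range. Of 14 fibroblast markers 4 were higher at that p (Wnt5a, Grem1, Il1rl1 and Lum) and 2 lower (Gsn and Dpt), beside 4.9% and 3.62% of all genes. The lower ones were 1 without vector library 1 or 3 or IBC library 4 or 5. Grem1, a BMP antagonist of the stroma around crypts, was at 273, 13.6, 143, 170.4, 20.4 and 201 CPM in IBC and 20.7 to 41.8 CPM in vector. Wnt5a was at 24.3 ± 7.57 CPM in IBC and 13 ± 5.39 CPM in vector. In the low-Hoxb13 libraries alone Mmp10, Grem1 and Wnt5a turned direction (log2 fold changes of -0.32, -0.33 and -0.14). Gsn, the actin-severing protein gelsolin, was at 449 ± 102 CPM in IBC and 739 ± 183 CPM in vector. Of 13 endothelial and adhesion genes, the selectins Sele and Selp were higher at that p, beside 4.9% of all genes. That count was 4 without vector library 2, vector library 3, IBC library 2 or IBC library 5, and 1 without IBC library 1.

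All 22 cell cycle genes had positive differences, beside 49.1% of all genes, 16 of them at an unadjusted p under 0.05, beside 4.9% of all genes, with a median log2 fold change of 0.61. The count was 9 without IBC library 5 and 8 without vector libraries 3 and 6. Aurka, a kinase of the mitotic spindle, was at 19, 31.9, 29.7, 32.2, 49.6 and 24.9 CPM in IBC and 13.6, 11.7, 15.7, 20.7, 26.1 and 18.1 CPM in vector. Rrm2, a subunit of ribonucleotide reductase, was at 51.5 ± 20.6 CPM in IBC and 24.2 ± 13 CPM in vector. Cdc20, which activates the anaphase-promoting complex, was at 66.6 ± 24.9 CPM in IBC and 40.1 ± 12.6 CPM in vector, and Aurkb, a kinase of chromosome segregation, at 33.8 ± 6.81 CPM in IBC and 21.7 ± 8.36 CPM in vector. IBC 5 was the highest library for all 4. DESeq2 called Aurka alone in this list. Within classes the median was 0.40 in high-Hoxb13 and 0.97 in low-Hoxb13 libraries.

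**Figure D4:**
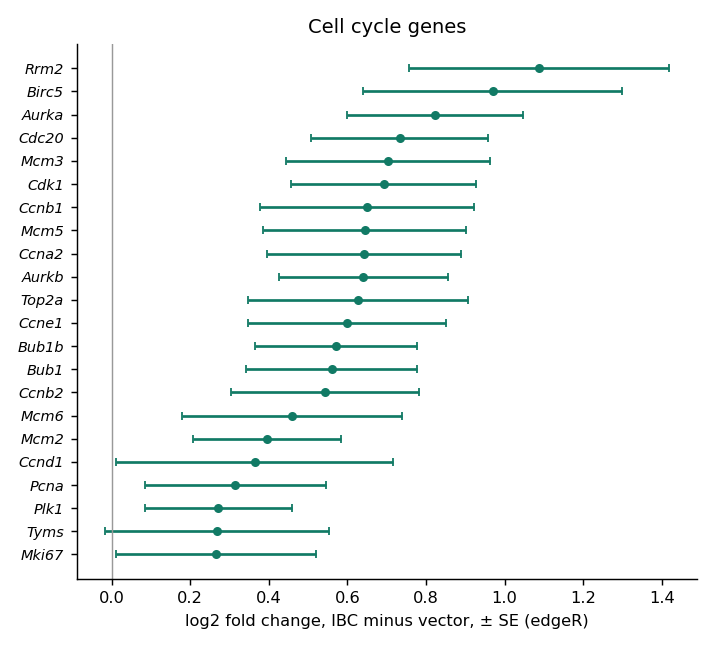
Log2 fold change, IBC minus vector, with its standard error for 22 cell cycle genes, ordered by value. All lie above 0, from 0.266 to 1.09.

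Lists of goblet cell, colonocyte, stem cell and tight junction genes had medians from -0.30 to -0.02. At an unadjusted p under 0.05, 1 of 12 goblet cell and 2 of 16 colonocyte genes were lower, beside 3.62% of all genes. At that p, 2 of 13 stem cell and 1 of 14 tight junction genes were higher, beside 4.9% of all genes. Muc2, the main secreted mucin, was at 13953, 13059, 3037, 15513, 7047 and 3042 CPM in IBC and 2041, 5921, 18441, 17196, 14089.7 and 3162 CPM in vector, and the log2 fold change was -0.13 ± 0.61 (unadjusted p = 0.835). Both groups spanned several-fold. Of 12 goblet cell genes Clca1, a secreted goblet protein, was lower at an unadjusted p under 0.05, at 729.9 to 5385 CPM in IBC and 953 to 25695 CPM in vector. Of 16 colonocyte transport genes, Car2, a carbonic anhydrase, was lower at 552 ± 152 CPM in IBC and 763 ± 135 CPM in vector, as was Slc5a8, a butyrate transporter, at 115 ± 32.5 CPM in IBC and 189 ± 70.7 CPM in vector. These 2 were 0 without vector library 1, vector library 6 or IBC library 1, and 1 or 2 without each of the other 9. Car2 was above 0 in the low-Hoxb13 libraries alone, by 0.20 on the log2 scale. Of 13 stem cell and Wnt target genes, Smoc2 and Lgr5 were higher, at 45.5 ± 22.9 CPM in IBC and 20.8 ± 6.41 CPM in vector, and at 9.91 ± 5.85 CPM in IBC and 4.61 ± 1.31 CPM in vector. The count was 1 without vector library 3, IBC library 3 or IBC library 6, and Lgr5 was at -0.13 in the low-Hoxb13 libraries alone. Of 14 tight junction genes Cldn4, a claudin, was higher, at 47.8 to 88.7 CPM in IBC and 16.2 to 33.6 CPM in vector, without overlap.

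Of 15 antimicrobial and injury genes, 3 were higher at an unadjusted p under 0.05, beside 4.9% of all genes, with 5 without IBC library 2 and 6 without vector library 4. Saa3, an acute-phase protein, was at 23.4 ± 22.3 CPM in IBC and 2.45 ± 3.05 CPM in vector, without overlap. Slpi, a protease inhibitor, was at 30.3 ± 25.2 CPM in IBC and 4.5 ± 1.4 CPM in vector, and Lcn2, which binds bacterial siderophores, at 6.46 ± 3.48 CPM in IBC and 2.23 ± 0.803 CPM in vector. Nos2, the inducible nitric oxide synthase, was at 5.27 ± 2.78 CPM in IBC and 3.7 ± 6.18 CPM in vector, and vector 4 held the highest value of the 12, 16.2 CPM. In the low-Hoxb13 libraries alone Nos2 was at -0.93 and Krt13, described next, at -0.43 on the log2 scale. Markers of squamous epithelium, which lines the anal canal, were higher in 4 of 8 (Dsg3, Krt6a, Krt14 and Krt13), beside 4.9% of all genes, and their part in the other differences was not tested. Krt14 was at 1.68 to 23 CPM in IBC and 0.557 to 3.19 CPM in vector. Krt13 was at 10, 0.129, 12.8, 3.75, 0.225 and 16.3 CPM in IBC and 0.237 to 1.36 CPM in vector, with IBC 2 and 5 below every vector library. Dsg3, a desmoglein, was at 0.881 ± 0.75 CPM in IBC and 0.152 ± 0.0742 CPM in vector.

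The genes with the smallest p among those lower in IBC were Tsc22d3, Ccdc117, Rgs6, Tppp, Cenatac, Zmym1, Zbtb48, Cd300e, Mkx, Tnnt2, Igfbp3 and Oprd1. DESeq2 called all 12, and 10 of the 12 had no overlap between groups, beside 0.633% of all genes, under the same rule. Tsc22d3, on chromosome X, encodes the glucocorticoid-induced leucine zipper GILZ. It was at 43.2, 38.8, 47.6, 46.4, 49.6 and 43.8 CPM in IBC and 164, 147, 85.2, 108, 55.6 and 73.5 CPM in vector. The IBC libraries lay close together under the lowest vector library. The log2 fold change was -1.23 ± 0.22 (unadjusted p = 2.87e-05, adjusted p = 0.126, edgeR).

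Tppp, which promotes tubulin polymerisation, was at 22.2, 44, 20.5, 24.8, 38.2 and 21.3 CPM in IBC and 183, 121, 54.5, 132, 97.1 and 98.3 CPM in vector. Its highest IBC values were those of the low-Hoxb13 libraries 2 and 5. Ccdc117, a coiled-coil protein, was at 26.1 to 31.9 CPM in IBC and 36.3 to 49.6 CPM in vector. Rgs6, a regulator of G protein signalling, was at 0.75 ± 0.335 CPM in IBC and 2.64 ± 0.941 CPM in vector. Igfbp3, which binds insulin-like growth factors, was at 43.7 to 61.4 CPM in IBC and 68.3 to 209 CPM in vector, where vector 3 gave the top value. Mkx, a homeobox factor of tendon, was at 9.28 ± 1.19 CPM in IBC and 17 ± 3.15 CPM in vector.

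Tnnt2, the cardiac form of troponin T, was at 2.21 ± 0.818 CPM in IBC and 8.05 ± 3.9 CPM in vector. Oprd1, the delta opioid receptor, was at 0.359 ± 0.152 CPM in IBC and 1.11 ± 0.315 CPM in vector. Cd300e, a receptor of monocytes, was lower although most monocyte markers were higher, at 0.452 ± 0.186 CPM in IBC and 2.1 ± 0.978 CPM in vector. Cenatac, a splicing factor, was at 20.6 ± 1.9 CPM in IBC and 28.1 ± 2.73 CPM in vector. Zbtb48, a zinc finger protein that binds telomeres, was at 11.3 ± 0.469 CPM in IBC and 16.2 ± 1.38 CPM in vector, and Zmym1, another zinc finger protein, at 10.9 ± 1.42 CPM in IBC and 16.8 ± 2.48 CPM in vector.

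**Figure D5:**
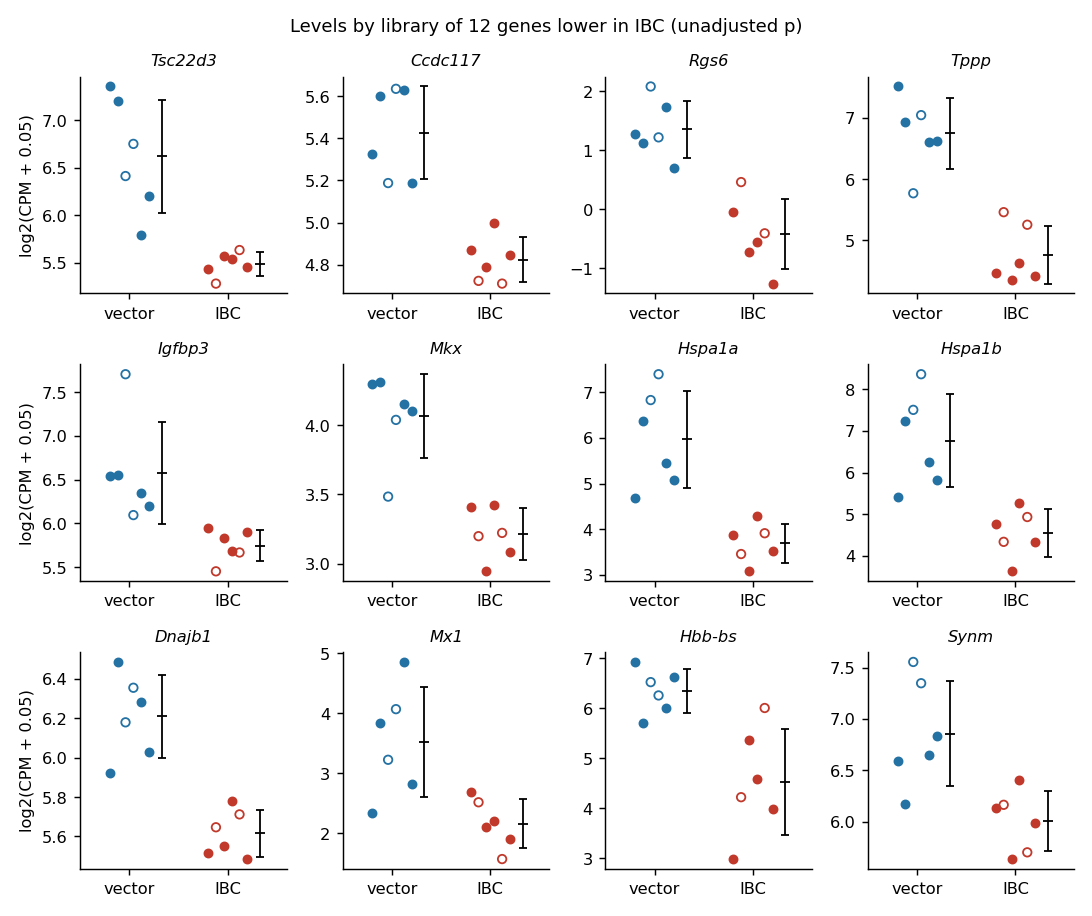
Level of 12 genes in each library, as log2(CPM + 0.05), for vector (blue) and IBC (red). Filled points are high-Hoxb13 libraries and open points low-Hoxb13 ones, with black bars for mean and SD over 6 libraries. Tsc22d3, Ccdc117, Tppp, Igfbp3, Hspa1a, Hspa1b and Dnajb1 are among the genes that do not overlap between groups, and for Synm the 2 open vector points are the highest.

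Of 11 genes on the glucocorticoid response list, 2 were lower at an unadjusted p under 0.05, Tsc22d3 and Klf9, beside 3.62% of all genes. The 1 higher at that p was Cyp11a1, named after its result was seen, beside 4.9% of all genes. Cyp11a1 encodes an enzyme of steroid synthesis, so its level is not read as a response to glucocorticoids. The count of higher genes was 2 without vector library 3 and 0 without vector library 1, 4 or 6 or IBC library 1 or 6. Klf9, a zinc finger factor, was at 58.4 ± 7.58 CPM in IBC and 80.7 ± 13 CPM in vector. The list's median log2 fold change was -0.17.

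Heat shock chaperones held 3 genes without overlap, all lower in IBC, beside 0.633% of all genes. Of 12 tested, 4 were lower at an unadjusted p under 0.05, beside 3.62% of all genes, and none was higher. Hspa1a, an inducible HSP70, was at 14.5, 10.9, 8.36, 19.5, 15 and 11.4 CPM in IBC and 25.6, 82.3, 114, 169, 43.6 and 33.8 CPM in vector. Its near-identical copy Hspa1b, with which counts may be shared, was at 12.3 to 38.3 CPM in IBC and 42.4 to 329 CPM in vector. Dnajb1, an HSP40 that delivers clients to HSP70, was at 44.8 to 55 CPM in IBC and 60.5 to 89.5 CPM in vector. Dnaja1, another HSP40, was at 161 ± 44.6 CPM in IBC and 231 ± 69.8 CPM in vector.

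Smooth muscle markers were below 0 in all 14, beside 50.9% of all genes. Of these, 6 were lower at an unadjusted p under 0.05, beside 3.62% of all genes, and that count was 1 without vector library 3. Synm, an intermediate filament protein, was at 70.3, 71.6, 49.7, 84.9, 52 and 63.4 CPM in IBC and 96.6, 71.9, 188, 163, 100.1 and 114 CPM in vector. Myh11, the smooth muscle myosin heavy chain, was at 487, 655, 316, 423, 449 and 403 CPM in IBC and 571, 431, 2228, 1251, 596 and 747 CPM in vector. The low-Hoxb13 vector libraries 3 and 4 were the highest for both. Synpo2 and Lmod1, actin-binding proteins of muscle, were at 73.4 ± 23.4 CPM in IBC and 133 ± 67.3 CPM in vector, and at 26.1 ± 4.6 CPM in IBC and 44.2 ± 29.2 CPM in vector. Within classes the list's median was -0.26 in high-Hoxb13 and -0.77 in low-Hoxb13 libraries. All 13 mitochondrially encoded genes were also below 0, and 5 were lower at that p, beside 3.62% of all genes. That count was 3 without vector library 3 and 8 without IBC library 2.

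Red blood cell genes were below 0 in all 7 tested, beside 50.9% of all genes. Of these, 6 were lower at an unadjusted p under 0.05, beside 3.62% of all genes. This count was 6 with each of the 12 libraries left out in turn. Hbb-bs, a beta globin, was at 7.85, 18.6, 40.9, 23.8, 64 and 15.8 CPM in IBC and 121, 52.2, 91.7, 76.2, 64.2 and 98.4 CPM in vector, so that IBC 5 alone reached the vector range. Hbb-bt, another beta globin, was at 8.96 ± 6.86 CPM in IBC and 28 ± 8.05 CPM in vector, and Hba-a1, an alpha globin, at 24.7 ± 20.01 CPM in IBC and 63.9 ± 19 CPM in vector. Globin copies are near-identical and counts may be split among them. Alas2, the erythroid enzyme of heme synthesis, was at 0.788 ± 0.419 CPM in IBC and 2.41 ± 0.825 CPM in vector.

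Of 18 interferon-stimulated genes 4 were lower and 1 higher at an unadjusted p under 0.05, beside 3.62% and 4.9% of all genes, and 2 were lower without vector libraries 3 and 6. The higher ones were 2 without vector library 4 and 1 without vector library 3, IBC library 4 or IBC library 6, and 0 without each of the other 8. Mx1, an antiviral GTPase, was at 6.35, 5.66, 4.22, 4.53, 2.91 and 3.7 CPM in IBC and 4.98, 14.3, 9.28, 16.7, 28.9 and 7.03 CPM in vector. The oligoadenylate synthetase genes Oas1a, Oasl2 and Oas2 were at 67.4 ± 22.7 against 109 ± 31 CPM, 22.2 ± 12.5 against 59.2 ± 29.3 CPM and 5.23 ± 2.04 against 12.4 ± 6.93 CPM. Irf1, a transcription factor named after its value was seen, was higher, at 174 ± 55.9 CPM in IBC and 106 ± 31.7 CPM in vector. Oas1a was at 0.02 on the log2 scale in the low-Hoxb13 libraries alone. The upstream stretch of Oas1a is shown because it holds 2 overlapping matches to TTTC-NN-TTTC, letters of the kind in interferon-response elements, close to its start. RefSeq's table gave 11 list members, of which 7 (63.6%) held a match on either strand, beside 978 of all 32851 promoters (2.98%). Here too the list is counted by gene and the background by promoter. The stretch is chr5:120907526-120907775 (minus strand) in GRCm38.p6, 5′ to 3′, with the matches in capitals.
Oas1a: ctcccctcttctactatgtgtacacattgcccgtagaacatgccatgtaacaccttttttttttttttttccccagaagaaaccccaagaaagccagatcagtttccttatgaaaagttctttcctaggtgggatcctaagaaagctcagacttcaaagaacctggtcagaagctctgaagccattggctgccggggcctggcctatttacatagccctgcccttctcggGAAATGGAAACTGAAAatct

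Gpr84 was at 0.402, 0.129, 0.271, 0, 0.225 and 0.262 CPM in IBC and 0, 0, 0, 0.101, 0.0649 and 0 CPM in vector, levels that rest on few fragments, and a two-sided exact permutation test gave p = 0.0238 in the family of 22 genes, which was chosen with earlier results of these data known. Over all genes its edgeR adjusted p was 0.55, and 0.282 to 0.763 over the settings tried, so it was called in none. Of 33 genes of the pathway, 2 were higher at an unadjusted p under 0.05 (Gpr84 and Pik3ap1, an adaptor of PI3K) and 1 lower, beside 4.9% and 3.62% of all genes, with a median log2 fold change of -0.17, so the list lay near the background. None was higher without vector library 1 or 6 or IBC library 1, 3 or 6, and 1 was higher without vector library 3, 4 or 5. The lower ones were 2 without IBC library 6. The lower one, Pik3r3, a regulatory subunit of PI3K, was at 33.8, 24.5, 34.7, 34.1, 18.6 and 35.6 CPM in IBC and 49.2, 45.9, 35.8, 47.3, 54.3 and 39.5 CPM in vector, separated by a narrow gap. Akt1 was at 218 ± 7.23 CPM in IBC and 214 ± 25.8 CPM in vector. The catalytic subunits Pik3ca, Pik3cd and Pik3cg had log2 fold changes of -0.31 ± 0.18, 0.59 ± 0.29 and 0.32 ± 0.39. Foxo3, a factor that AKT keeps out of the nucleus, was at 0.06 ± 0.19. RNA levels do not measure kinase activity.

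Chalcones can act on the NRF2 and aryl hydrocarbon receptor systems, so targets of both were listed. Of 16 NRF2 targets 15 were above 0, beside 49.1% of all genes. Their median log2 fold change over vector was 0.36 in IBC and 0.31 in TNBS. For IBC minus TNBS the median was 0.04. At an unadjusted p under 0.05, 4 were higher in IBC than in vector and 1 was lower, beside 4.9% and 3.62% of all genes. The 4 were 2 without vector library 2 and 2 without IBC library 5, and the lower one was 0 without each of 8 libraries, IBC 3 and 6 and vector 4 and 5 being the others. Hmox1, heme oxygenase, was at 45.1, 12.4, 33.4, 36.5, 16.9 and 45.2 CPM in IBC and 7.12, 6.3, 14.4, 5.8, 4.97 and 6.16 CPM in vector, with IBC 2 below vector 3. G6pdx and Pgd, enzymes of NADPH supply, were at 88.8 ± 16.5 against 69.5 ± 3.7 CPM and 318 ± 69.9 against 246 ± 31.4 CPM in IBC and vector, and Txnrd1, thioredoxin reductase, at 268 ± 45.3 against 208 ± 29.9 CPM. Nqo1, a quinone reductase, was at 57.9 and 74.1 CPM in the low-Hoxb13 IBC libraries and 17.9 to 21.1 CPM in the other 4, against 18.4 to 40.1 CPM in vector. The lower gene was Gstm1, a glutathione transferase, at 186 ± 28.6 CPM in IBC and 263 ± 64.4 CPM in vector, named after its value was seen. Of 7 aryl hydrocarbon receptor targets, Aldh1a3 and Cyp1b1 were higher and the repressor Ahrr lower at an unadjusted p under 0.05, at 27.7 ± 20.5 against 7.58 ± 3.82 CPM, 1.27 ± 0.637 against 0.563 ± 0.341 CPM and 2.41 ± 0.52 against 3.61 ± 0.678 CPM, beside 4.9% and 3.62% of all genes. The higher ones were 1 without each of 8 libraries, all but vector 3 and 4 and IBC 2 and 3, and none was lower without vector library 1, vector library 5 or IBC library 4. Aldh1a3 turned direction in the low-Hoxb13 libraries alone, at -0.61 on the log2 scale. Cyp1a1, a classic target of that receptor, was at 0.526 ± 0.358 CPM in IBC and 0.939 ± 0.693 CPM in vector.

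The TNBS libraries give the same genes a second reference. TNBS against vector shares the vector libraries with the comparison above, and IBC against TNBS shares the IBC libraries, so values stand side by side only. TNBS against vector had 2186 genes higher (10.5%) and 1525 lower (7.31%) at an unadjusted p under 0.05. Over vector, Cxcl1 had a log2 fold change of 2.73 ± 0.64 in IBC and 3.28 ± 0.66 in TNBS, Clec10a 2.93 ± 0.53 and 2.19 ± 0.51, and Tsc22d3 -1.23 ± 0.22 and -0.89 ± 0.22. List medians over vector were 2.20 in IBC and 2.46 in TNBS for cytokines and chemokines, 0.61 and 0.70 for cell cycle genes, 1.09 and 0.53 for matrix genes, and -0.59 and -0.90 for smooth muscle markers.

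Directly between IBC and TNBS edgeR called no gene, with 354 higher in IBC (1.7%) and 468 lower (2.24%) at an unadjusted p under 0.05. In heat shock chaperones 7 of 12 were lower in IBC than in TNBS at that p. Hspa1a averaged 98.3 CPM in TNBS, and its log2 fold change was -2.89 ± 0.67 for IBC minus TNBS and 0.33 ± 0.62 for TNBS minus vector. Alox15 averaged 1.17 CPM in TNBS and was higher in IBC by 1.902 ± 0.58 on the log2 scale (unadjusted p = 0.0042). Synm was higher in IBC than in TNBS by 0.81 ± 0.27 (unadjusted p = 0.00747), and Foxo3 by 0.67 ± 0.19 (unadjusted p = 0.00273).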

How the data were processed

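Polyadenylated RNA of mouse colon was sequenced in 18 libraries, 6 each labelled vector, TNBS and IBC. The deposited table gives, per the file headers, raw counts and FPKM values (fragments scaled by gene length and library size) of 35405 genes per library. Reads were trimmed with cutadapt 1.9, per the submitters' processing notes. The genome build, the aligner and the counting program: not given in the sources used here. Therefore no coordinates of the table are printed. A deposited count of 4 was more frequent (19961 pairs of gene and library) than a count of 3 (9977) or 5 (6358).

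Counts were fitted with edgeR 4.0.16 (R 4.3.3; TMM, filterByExpr, robust quasi-likelihood, 1 mean per group over all 18 libraries) and adjusted over the 20855 genes tested. CPM values use TMM-scaled totals. Alternatives used DESeq2 1.42.0 and limma 3.58.1. Scripts were tested on simulated data. The members and gene lists were chosen with earlier results of these data known. The text names the 12 genes of smallest unadjusted p in each direction with a mean of at least 1 CPM in the higher group (1 of those higher in IBC is not reported here) and at most 1 library of 6 across the other group's median (predicted, pseudogene and mitochondrial names left out), 22 fixed genes, and up to 4 members of each of 47 lists by smallest p with a mean of at least 0.5 CPM.

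Same-numbered IBC and vector libraries did not deviate together (median correlation of deviations -0.11, over 0.1 in 1 of 6 pairs), so the fit was unpaired. No 2 libraries held identical values. Promoter letters are RefSeq's, build GRCm38.p6.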

Additional observations from a re-analysis of the deposited data

Results flagged for a closer look

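Of 268 groups of 6 libraries checked, 30 held a library far from the other 5, by a gap to the nearest past Dixon's 95% critical ratio. Chance alone gives about 1 in 20. Vector library 3 accounted for 12 of them and IBC library 5 for 5. Vector library 1 was the highest of its group for Chil3 (0.0626 CPM). Vector library 2 was the highest of its group for Il7r (9.28 CPM). Vector library 3 was the highest of its group for Cxcl2 (0.079 CPM), Igfbp3 (209 CPM), Hmox1 (14.4 CPM), Wnt5a (23.7 CPM), mt-Nd2 (6644 CPM) and the lowest of its group for Mkx (11.1 CPM), Msr1 (1.56 CPM), C3ar1 (2.48 CPM), Mmp13 (0.584 CPM), Mmp10 (0.442 CPM), Gm11430 (1.36 CPM). Vector library 4 was the lowest of its group for Gsn (407 CPM). Vector library 6 was the highest of its group for Cxcl3 (0.0714 CPM), Timp1 (3.77 CPM), Ctrb1 (6914 CPM) and the lowest of its group for S100a8 (0 CPM). IBC library 2 was the highest of its group for Traf1 (28.8 CPM) and the lowest of its group for Sulf2 (30.7 CPM), C5ar1 (2.23 CPM). IBC library 4 was the lowest of its group for Tnnt2 (0.69 CPM), Il7r (0.733 CPM). IBC library 5 was the highest of its group for Rrm2 (92.2 CPM), Ier3 (52.1 CPM) and the lowest of its group for Cenatac (17 CPM), Zbtb48 (10.4 CPM). Vector library 3 also had a mitochondrial share of counts of 18%, IBC library 2 one of 7.51%, and IBC library 5 the highest total count, 78874868 (78.9 times 1e+06).

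Gm11430, on chromosome 11 and named after its result was seen, had an IBC effect that differed between the Hoxb13 classes by 9.42 on the log2 scale (interaction adjusted p = 0.0139, edgeR). The log2 fold change was -0.81 in the high-Hoxb13 and -10.2 in the low-Hoxb13 libraries. Mean levels were 3.26 CPM in vector and 1.43 CPM in IBC, and since some IBC libraries were at 0 the fitted size depends on the prior count.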

How the results depend on the processing

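The number of genes called was 0 in the edgeR fit of all 18 libraries, 186 with DESeq2, 14 with the 12 IBC and vector libraries alone, 4 with Hoxb13 class as a covariate, 17 in the high-Hoxb13 libraries alone, 1 in the low-Hoxb13 libraries alone and 616 with limma's library weights. Leaving out 1 library at a time gave 0 to 6 calls. The replicate block gave 0 calls and 1686 genes at an unadjusted p under 0.05. The numbers do not pair the libraries, since 0 of 6 correlated best with its own number. At an unadjusted p under 0.05, 3154 genes stood without a filter, 3120 in the low-Hoxb13 libraries alone, 3823 with library weights and 1399 to 1890 with 1 library left out. On the FPKM scale 1571 were higher and 412 lower with a pseudocount of 0.1, and 1556 and 467 with 1, against 1021 and 754. Groups did not overlap in 2444 genes of the high-Hoxb13 and 10528 of the low-Hoxb13 libraries alone, in 837 without vector 3 and 6 (chosen after seeing the data) and in 253 to 496 with 1 library left out, where fewer libraries make overlap rarer by construction. Genes whose IBC effect differed between classes numbered 330 with the 12 libraries alone and 3 to 136 with a low-Hoxb13 library left out, which was added after seeing the data.

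Some named genes turned direction, and the cause was not tested. In the low-Hoxb13 libraries alone the log2 fold changes were Pik3cg -0.0513, Foxo3 -0.397, Nos2 -0.927, Lox -0.959, Col1a1 -0.726, Col1a2 -0.761, Mmp10 -0.322, Oas1a 0.0211, Aldh1a3 -0.606, Krt13 -0.426, Lgr5 -0.127, Car2 0.203, Wnt5a -0.145, Grem1 -0.327, Loxl2 -0.821. In the high-Hoxb13 libraries alone Akt1 was -0.0161, Muc2 0.527 and Nqo1 -0.0875. With library weights they were -0.0217, 0.185 and -0.0161. Muc2 was 0.0162 with the covariate and 0.103 and 0.102 on the FPKM scale, and Akt1 -0.0383 without vector 3 and 6. With 1 library left out the ranges were -0.0233 to 0.0658 for Akt1, -0.00411 to 0.131 for Foxo3 and -0.343 to 0.145 for Muc2. Several of these genes lay near 0 in the fit of all libraries. Genes under 1 CPM rest on few fragments, which limits Gpr84, Il6, Ccl3 and Ccl4.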

Other observations

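B and plasma cell markers differed between the Hoxb13 classes in the opposite sense to matrix genes. Of 15 such markers, 1 (Tnfrsf17, a receptor of plasma cells) was lower in IBC at an unadjusted p under 0.05 over all libraries and none was higher, beside 3.62% and 4.9% of all genes. Their median log2 fold change over all libraries, 0.09, had no stable sign. It was 0.77 without vector library 2, -0.07 without IBC library 3, and below 0 also without vector library 1, 3 or 4 or IBC library 6. The median was -0.09 in the high-Hoxb13 and 2.02 in the low-Hoxb13 libraries, with the interaction at an unadjusted p under 0.05 in 6 of 15, all larger in the low class, beside 4.73% of all genes. Of 10 MHC class II presentation genes 4 did so, with medians of -0.16 and 0.93, and of 15 immediate-early genes, which are not tied to a cell type, 5, with medians of -0.11 and 0.76. T and cytotoxic lymphocyte markers had medians of 0.10 in the high and 0.67 in the low class, which leaned the same way. Their IBC effect was larger in the high class in 5 of 18, beside 10771 of all 20855 genes. At that p, 0 of 18 were larger in the low class and 1 in the high, beside 4.73% and 7.26% of all genes. None of the genes of these 4 lists passed after adjustment (smallest adjusted p 0.106, edgeR). The low class holds 2 libraries of each group, and its vector library 4 differed from the others in Hoxb6.

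Among metabolic lists, 18 cholesterol synthesis genes had no member at an unadjusted p under 0.05, and their median was -0.12 in the high and 0.37 in the low class. Of 19 glycolysis and hypoxia genes 3 were higher at that p (Hk3, Ndrg1 and Eno1) and none was lower, beside 4.9% and 3.62% of all genes, and 1 was higher without vector library 2, vector library 6 or IBC library 4. Of 13 prostaglandin and leukotriene genes 3 were higher (Alox5ap, Tbxas1 and Ltc4s), beside 4.9% of all genes, and 1 without IBC library 3 or 6. Of 16 unfolded protein response genes 2 were lower (Ddit3 and Dnajb9), beside 3.62% of all genes, with 0 without IBC library 1 or 6, and 1 without vector library 1, 2, 4 or 5 or IBC library 3 or 4.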
